A study of Cricetulus griseus with 16 samples.

Results

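The mildest heat treatment of the series was 1 h at 40 °C, and it was compared here with unheated cells kept at 37 °C. The comparison used 7 of the 16 RNA-seq libraries, namely the 4 heated libraries with the letters A to D and the control libraries A, B and C, and it covered all 10494 genes whose counts were high enough to test out of 20824 genes listed. Control D was left out, as the study left out 1 control sample that stood apart from its group, and its values are given where a result turns on them. All cells were CHO (ATCC CCL-61), an established line from Chinese hamster ovary, seeded 1 day before the heat in Ham's F-12K medium with fetal bovine serum, penicillin and streptomycin, with no genetic change and no other treatment. The study's methods describe 4 biological repeats per group, and the labels do not say whether a letter marks a shared day. The other heated groups were 4 libraries kept at 40 °C for 6 h and 4 kept at 42.5 °C for 1 h. They were used to ask whether genes described after 1 h at 40 °C stood higher or lower there, and in 1 alternative fit. The study as a whole asked how mild, fever-like heat makes cells tolerant of a later stress.

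Cells answer heat with the heat shock response, in which the transcription factor HSF1 is released from chaperones that become occupied by unfolding proteins and switches on genes for the same chaperones. HSP70 proteins bind and refold clients, J-domain proteins such as Dnajb1 deliver the clients, HSP110 and BAG proteins exchange the nucleotide, and small heat shock proteins hold aggregating clients in a refoldable state. Heat also sets off rapid signalling through MAP kinases, seen as a burst of immediate early genes, and changes RNA splicing.

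The 7 libraries held between 11346465 and 14668365 counts each, so that 3 counts, taken as the floor of detection for counting error only, correspond to 0.205 to 0.264 CPM (counts per 1000000 counts of a library). CPM values below were scaled by edgeR's TMM factors. They are shares of the RNA of a whole culture, so that fewer responding cells and less RNA per cell cannot be told apart. Whether counting used the strand is not given in the sources used here, and reads of overlapping or antisense genes cannot be told apart. Marker lists of cell types were read to check the labelled line, and several defining markers were absent. Of the 10 listed fibroblast and mesenchymal genes, 7 were high enough to test, and together the 10 held 2999 to 3129 CPM in the 3 control libraries and 2897 to 3053 CPM in the heated ones. Vim, which encodes the intermediate filament vimentin, held at least 25704 counts in every library, whereas Thy1 was at 0 and Col1a1 had at most 2 counts. Epithelial markers summed to at most 5.09 CPM, leukocyte markers to at most 0.163 CPM and endothelial markers to at most 1.15 CPM in any of the 7. The ovarian granulosa and steroidogenic list summed to 7.95 to 10.2 CPM at 37 °C and 9.7 to 11.4 CPM at 40 °C, with Fshr, Cyp19a1, Foxl2 and Lhcgr at 0. Control D differed from each other control far beyond counting noise. The chi-square per degree of freedom between its counts and those of A, B or C was 41.4 to 49.2, against 2.77 to 4.85 among A, B and C.

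An hour at 40 °C changed few genes. A gene was counted as a differentially expressed gene (DEG) where edgeR's quasi-likelihood test gave an adjusted p below 0.05 and the fold change was 1.5 or more in either direction. There were 35 DEGs, with 29 genes higher (0.276% of those tested) and 6 lower (0.0572%). Without the fold threshold, 112 genes were higher (1.07%) and 60 lower (0.572%). The largest of these rises were those of the inducible HSP70 transcript, of Zfand2a and of Dnajb1. All 35 DEGs had heated libraries entirely on one side of control libraries A to C, an arrangement found upward in 716 tested genes (6.82%) and downward in 691 (6.58%). The 35 were called from these same libraries, so their separation adds no support. The median log2 fold change over all tested genes was 0.000357 and its standard deviation over genes 0.166, and the biological coefficient of variation between libraries was 0.0487.

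Which controls entered the fit decided most of these calls. With control D included, 3 genes were DEGs (Clk1 and Rsrp1 higher, Plk2 lower). With control D and the library letter as a block, Rsrp1 alone was called (adjusted p = 0.0274), and Clk1 and Plk2 were not (adjusted p = 0.0798 and 0.0847). Control D lay inside or above the range of the heated libraries for 6 of the 29 higher DEGs (20.7%, against 61.6% of all tested genes). The 29 were chosen as higher than controls A to C, so a lower share was likely from the start. When limma's voom gave each library a quality weight, which was 0.0822 for control D and 1.01 to 1.83 for the other 7, all 4 controls gave 41 DEGs and 32 of the 35 were among them. Same-letter control and heated libraries shared part of their deviation, and with the letter as a block the count was 48 DEGs, 34 higher and 14 lower, with 34 of the 35 among them. Adjusted p below 0.05 was then reached by 634 genes in place of 172. Heated D had no control of its letter in that fit and added nothing to its fold changes, which rest on A, B and C alone.

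**Figure D1:**
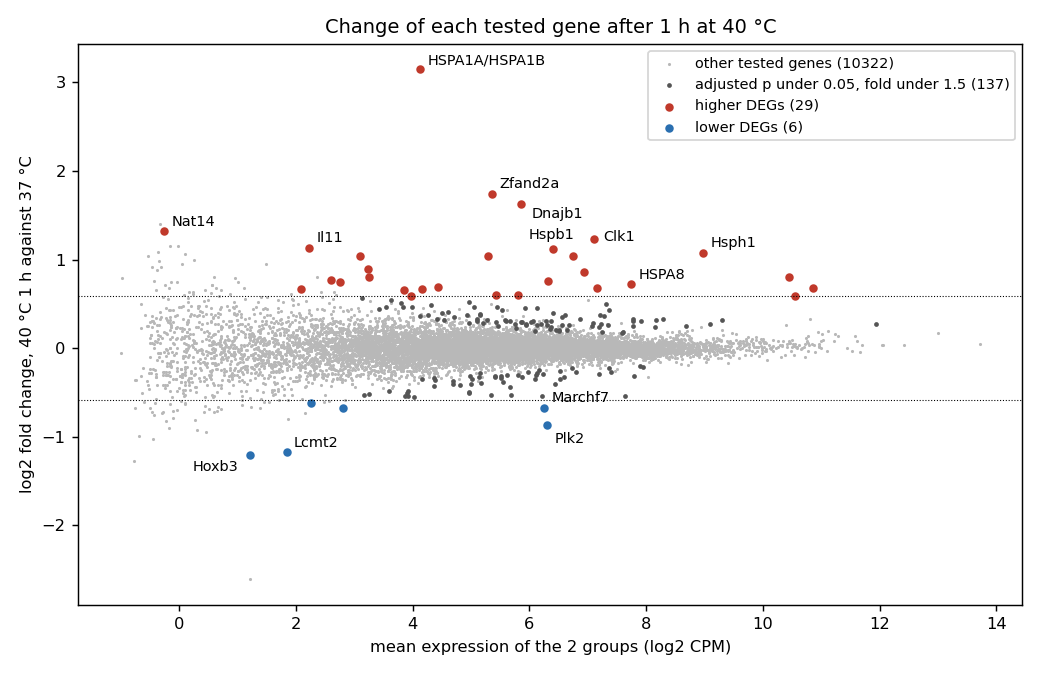
Log2 fold change of each of the 10494 tested genes (40 °C for 1 h against 37 °C A to C) over its mean expression in log2 CPM. Red points are the 29 higher and blue points the 6 lower DEGs, dark points passed adjusted p alone, and dotted lines mark 1.5-fold. HSPA1A/HSPA1B stands alone above a log2 fold change of 3.

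The inducible HSP70 gene led the response. The row paired with the name HSPA1A/HSPA1B (ENSCGRG00001001109) stands for a stress-induced chaperone encoded by near-identical copies, so its reads may be split or merged among them. It was at 4.00, 4.01 and 2.59 CPM in control A, B and C and at 3.83 CPM in control D, or 30 to 57 counts per library. The heated libraries A, B, C and D held 57.5, 15, 37.0 and 16.3 CPM, all above every control, with A and C more than B and D. The fold change was 8.85 (log2 3.14, SE 0.47, adjusted p = 0.00324). Hsph1 (ENSCGRG00001021270), the HSP110 that recharges HSP70 with nucleotide, stood at 328, 323 and 320 CPM in controls A to C and 340 CPM in control D. The heated libraries had 874, 449, 860 and 549 CPM in the order A to D, a 2.11-fold rise (log2 1.08, SE 0.17, adjusted p = 0.00441). HSPA8 (ENSCGRG00001018983), the constitutive HSP70, was 1.65-fold higher (log2 0.72, SE 0.09, adjusted p = 0.000524). Its heated libraries ran from 213 to 294 CPM against 156 to 174 CPM in controls A to C, but control D, at 223 CPM, lay inside the heated range. The remaining members of the HSP70 and HSP110 list did not pass. Of 7 tested, 3 were DEGs and the median log2 fold change was 0.20, with Hspa2, a testis-enriched HSP70, at 0.20 (adjusted p = 0.383) and Hspa4, another HSP110 member, at 0.12 (adjusted p = 0.223, and 0.00881 with the letter as a block).

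Among the helpers of HSP70, the J-domain protein Dnajb1 (ENSCGRG00001013728), which feeds clients to HSP70 and triggers its ATP hydrolysis, was the most changed. It measured 28.8, 26.3 and 30.2 CPM in controls A to C and 32.6 CPM in control D. Heated libraries A to D measured 125, 52.9, 113 and 59.7 CPM, again with A and C high, a 3.09-fold rise (log2 1.63, SE 0.25, adjusted p = 0.00334). Dnaja1, a farnesylated cytosolic J-domain protein, rose with a log2 change of 0.49 (SE 0.07, adjusted p = 0.00261), below the fold threshold. It was at 126 to 140 CPM in controls A to C and 158 to 203 CPM after heat, with control D at 156 CPM, between the groups. No other J-domain gene passed, and with the block DNAJB9, a J-domain protein of the endoplasmic reticulum, did (log2 0.44, adjusted p = 0.00894, against 0.46 and 0.077 without it). The list of 16 tested had 1 DEG, 2 genes past adjusted p alone, and a median of 0.07.

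Of 3 small heat shock proteins that could be tested, Hspb1 (ENSCGRG00001015556), which encodes Hsp25, was a DEG. Controls A to C held 55.4, 49.4 and 56.7 CPM and heated A to D held 129, 87.9, 150 and 100 CPM, a 2.17-fold rise (log2 1.11, SE 0.14, adjusted p = 0.000676). Control D, at 103 CPM, was as high as the lower heated libraries. Hspb8, a partner of BAG3 in chaperone-assisted autophagy, rose by a log2 change of 0.33 (SE 0.07, adjusted p = 0.0302), and Hspb6 was at 0.20 (adjusted p = 0.625).

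The HSP90 genes and co-chaperones that could be tested moved less. Of 17 listed names, 13 were found in the counts. Hsp90aa1, the other cytosolic HSP90, was not among the 13, so its change was not read by name. None of 13 tested members was a DEG, but 5 passed adjusted p alone, all upward (8 with the letter as a block), and the list's median was 0.19. Hsp90ab1, the constitutive cytosolic HSP90, had a log2 change of 0.27 (SE 0.06, adjusted p = 0.0324). Stip1, the adaptor that holds HSP70 and HSP90 together, had 0.27 (SE 0.05, adjusted p = 0.0154). The immunophilin Fkbp4 had 0.25 (adjusted p = 0.012), the zinc-binding co-chaperone Chordc1 0.33 (adjusted p = 0.00826) and the ATPase activator Ahsa2 0.39 (adjusted p = 0.0284). Its relative Ahsa1 reached 0.19 without passing (adjusted p = 0.0585), and with the block it passed (adjusted p = 0.000403). For all 5 that passed, the lowest heated library lay above the highest of controls A to C, an arrangement of 6.82% of all tested genes. The 5 were picked by adjusted p from these same libraries, so their separation adds no support. Control D stood above A to C in each of the 5. Over the 13 members its median log2 ratio to the mean of A to C was 0.22, within the heated range of 0.06 to 0.24. The chaperonin list, with 8 of 12 names found, showed small values only. Its members include Grpel1, a nucleotide exchange factor of mitochondrial HSP70, and Hspe1, the partner of HSPD1, is not among them. None of the 8 passed, and their median was 0.07, with the mitochondrial HSPD1 at 0.11 (adjusted p = 0.401). With the block HSPD1 alone passed (log2 0.10, adjusted p = 0.0308).

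The list of HSF1-linked, ubiquitin and BAG genes, whose members differ in role, gave 3 DEGs among 16 tested, with a list median of 0.04. Zfand2a (ENSCGRG00001018973), a zinc finger protein that associates with the proteasome under stress, was at 19.7, 18.6 and 18.5 CPM in controls A to C and 19.5 CPM in control D. Heated A to D were at 93.9, 33.7, 85.1 and 40.2 CPM, a 3.35-fold rise (log2 1.74, SE 0.30, adjusted p = 0.0073), with no overlap even when control D was counted. Bag3 (ENSCGRG00001013021), the co-chaperone that steers HSP70 clients to autophagy, was at 80.8, 93.9 and 88.3 CPM in controls A to C and 101 CPM in control D. After heat it was at 208, 112, 194 and 122 CPM in A to D, a 1.81-fold rise (log2 0.86, SE 0.17, adjusted p = 0.0157). Dedd2, a nuclear death-effector-domain protein, rose 1.75-fold (log2 0.81, SE 0.16, adjusted p = 0.0184) from 6.20 to 8.42 CPM in controls to 9.82 to 15 CPM. Serpinh1, the collagen chaperone of the endoplasmic reticulum, had a log2 change of 0.32 (SE 0.07, adjusted p = 0.0387). The HSF1 transcript itself stayed at 110 to 117 CPM in controls A to C and 117 to 120 CPM after heat (log2 0.04, adjusted p = 0.713).

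Over the 6 heat shock and chaperone lists together, 8 of 63 tested genes were higher DEGs and 16 passed adjusted p upward. Over all 10494 tested genes the counts were 29 and 112. None of the 63 passed downward, 51 had a positive log2 fold change, against 5257 of the 10494, and the median was 0.09. The lists were chosen with earlier results of these data known, so these counts describe the lists and do not test them. Unheated control D shared the upward shift. Its median log2 ratio to the mean of controls A to C was 0.36 for the chaperonin list, against -0.009 to 0.12 in the heated libraries. It was 0.19 against 0.037 to 0.081 for the list of HSF1-linked, ubiquitin and BAG genes, and 0.18 against 0.006 to 0.14 for J-domain genes. For the HSP90, small heat shock, and HSP70 and HSP110 lists it lay within the heated range. The calls of HSPA1A/HSPA1B, Hsph1, Dnajb1, Hspb1, Zfand2a and Bag3 were lost when edgeR's robust dispersions were used (adjusted p 0.0969 to 0.259), a setting that gives genes with a wide spread their own variance, while HSPA8 and Dedd2 were still called. HSPA1A/HSPA1B, HSPA8, Hsph1, Dnajb1, Hspb1 and Zfand2a were called with any 1 library left out, whereas Bag3 was lost without control A, B or C or heated C (adjusted p 0.0561 to 0.0792) and Dedd2 without control B or C or heated A or C (0.0513 to 0.115).

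**Figure D2:**
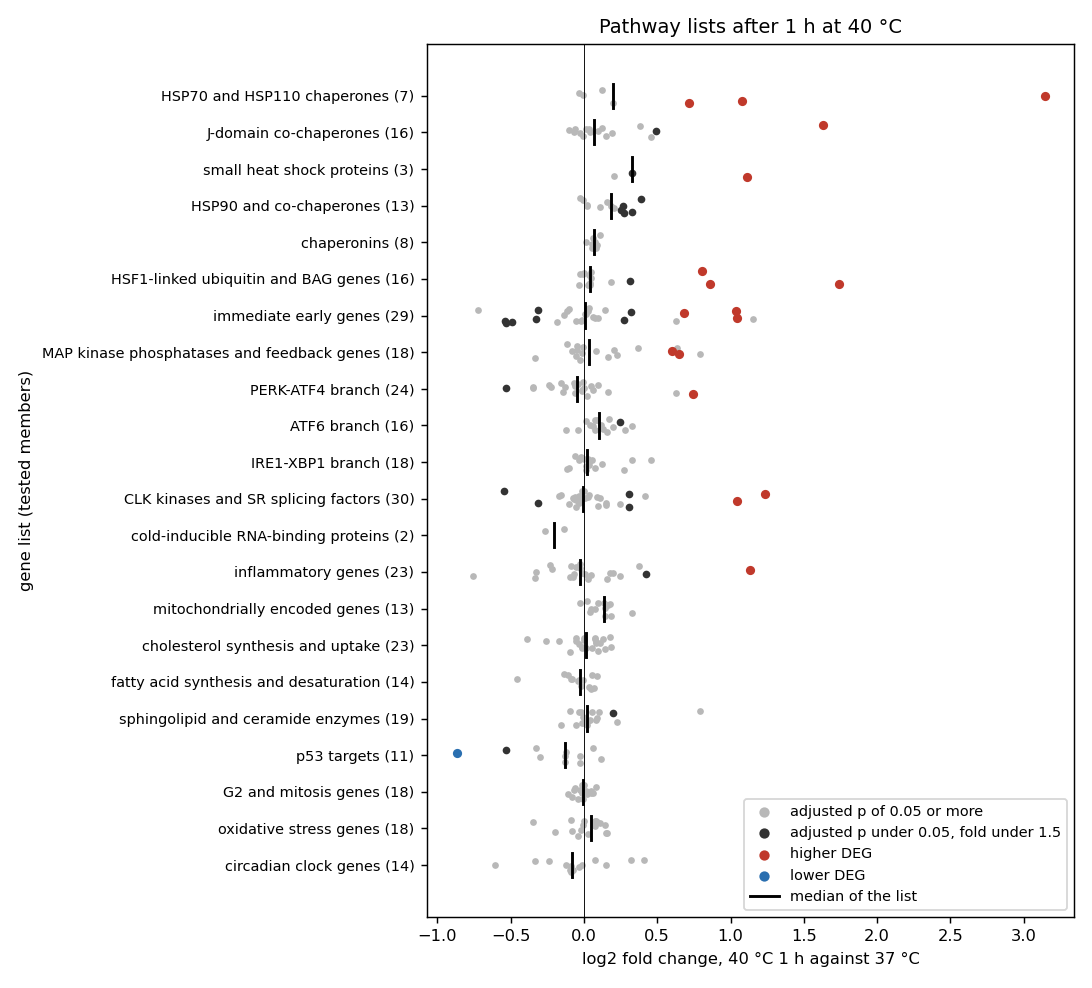
Log2 fold change (40 °C for 1 h against 37 °C) of every tested member of 22 pathway lists, with the number tested in brackets and the list median as a black bar. Red and blue points are DEGs. The 3 red points of the HSP70 and HSP110 list lie between 0.72 and 3.14, while most lists centre near 0.

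Immediate early genes, which cells transcribe within minutes of a signal from protein already present, split in direction. Of 29 tested, 3 were higher DEGs, 5 passed adjusted p upward and 5 downward, and the median was 0.01. Jun (ENSCGRG00001011810), a subunit of the AP-1 transcription factor, was at 66.7, 75.4 and 70.2 CPM in controls A to C and 68.5 CPM in control D. Heated A to D were at 188, 106, 176 and 112 CPM, a 2.06-fold rise (log2 1.04, SE 0.16, adjusted p = 0.00414). Ier5l (ENSCGRG00001010079), a relative of the HSF1 regulator Ier5, rose with little spread, from 5.33, 5.76 and 5.69 CPM in controls A to C to 11.8, 10.6, 12.2 and 11.5 CPM in heated A to D (log2 1.04, SE 0.11, adjusted p = 0.000182), with control D at 8.28 CPM between the groups. Tiparp, an ADP-ribosyltransferase, rose 1.6-fold (log2 0.68, SE 0.11, adjusted p = 0.00379) from 94.7 to 119 CPM in controls to 153 to 216 CPM.

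The other members that passed kept below 1.5-fold. Fosl2, an AP-1 partner of Jun, had a log2 fold change of 0.32 (adjusted p = 0.00889) and Jund 0.27 (adjusted p = 0.0346). The fall was clearest in Klf4, a Krüppel-like transcription factor, with 80.6, 88.1 and 94.4 CPM in controls A to C, 86.4 CPM in control D, and 58.1, 62.5, 61.5 and 59.7 CPM in heated A to D (log2 -0.54, SE 0.06, adjusted p = 0.000182). Egr1, a zinc finger factor of the ERK pathway, had -0.53 (adjusted p = 0.00752), Klf6 -0.49 (adjusted p = 0.00686, with control D below every heated library at 22.9 CPM), and the matricellular genes Ccn1 and Ccn2 -0.33 (adjusted p = 0.00451) and -0.32 (adjusted p = 0.0304). Fos, the partner of Jun that is best known for a burst after stress, was low. It was at 0.431 to 0.802 CPM in controls A to C and at 0.998 to 1.88 CPM after heat, and its log2 change of 1.16 (SE 0.33) did not pass (adjusted p = 0.0944). Junb (log2 0.09, adjusted p = 0.543) and Atf3 (log2 -0.18, adjusted p = 0.735) did not pass either. The call of Jun was lost with robust dispersions (adjusted p = 0.178), as was that of Tiparp (adjusted p = 0.132). Tiparp also fell under 1.5-fold without control A or heated C (log2 0.57 to 0.58).

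MAP kinase phosphatases, which switch off the kinases of the stress and growth signals, gave 2 DEGs among 18 tested feedback genes, with a median of 0.04. Dusp8 (ENSCGRG00001018480), a phosphatase of JNK and p38, was at 11.1, 12.3 and 10.3 CPM in controls A to C and 19.7, 17.1, 17.5 and 16.1 CPM in heated A to D (log2 0.65, SE 0.10, adjusted p = 0.0035), with control D, at 8.10 CPM, below all of them. Its call ended in 1 fit over all 4 groups (adjusted p = 0.0896). Dusp1, the rapidly induced nuclear phosphatase, was 1.52-fold higher (log2 0.60, SE 0.12, adjusted p = 0.02), at 40.3 to 48.0 CPM in controls and 77.2, 52.0, 81.9 and 59.9 CPM in heated A to D. The Dusp1 call ended without control B or C or heated A or C (adjusted p 0.0519 to 0.0934), with DESeq2's Wald test (adjusted p = 0.0607), in 1 fit over all 4 groups (adjusted p = 0.0695) and with robust dispersions (adjusted p = 0.202). It also ended with all 4 controls (adjusted p = 0.241), and with their quality weights the Dusp1 change was under 1.5-fold (log2 0.58). With the letter as a block, 7 members passed adjusted p in place of 2, among them Dusp5, an ERK phosphatase (log2 0.45, adjusted p = 2.01e-05, against 0.37 and 0.112 without the block).

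Of 23 tested inflammatory genes, Il11 (ENSCGRG00001001006), a cytokine of the IL-6 family, was the DEG. It was at 3.02, 3.43 and 2.33 CPM in controls A to C, or 27 to 47 counts, and at 7.89, 6.29, 7.02 and 4.65 CPM in heated A to D (log2 1.13, SE 0.19, adjusted p = 0.0073), with control D at 1.51 CPM below all of them. Lif, of the same cytokine family, had a log2 change of 0.42 (SE 0.09, adjusted p = 0.0302), though its groups overlapped, with 133 to 156 CPM in controls and 156 to 214 CPM after heat. Il6 was at 3.79 to 5.05 CPM in controls and 4.30 to 5.38 CPM after heat, with a log2 fold change of 0.18 (adjusted p = 0.653), and the chemokine Ccl2 had -0.07 (adjusted p = 0.769). The median of the list was -0.03. Il11 was called with any 1 library left out, and not in 1 fit over all 4 groups (adjusted p = 0.0662).

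Splicing regulators gave the DEGs with the smallest adjusted p, Rsrp1 and Clk1. Clk1 (ENSCGRG00001018410), a kinase that phosphorylates SR splicing factors and is itself regulated by retained introns, was at 85.4, 76.4 and 85.2 CPM in controls A to C and 98.7 CPM in control D. Heated A to D were at 224, 147, 225 and 178 CPM, a 2.35-fold rise (log2 1.23, SE 0.12, adjusted p = 9.7e-05). Rsrp1 (ENSCGRG00001024049), an arginine- and serine-rich protein, was at 24.4, 25.5 and 27.3 CPM in controls A to C and 26.1 CPM in control D, and at 57.4, 49.4, 51.3 and 53 CPM in heated A to D (2.06-fold, log2 1.04, SE 0.07, adjusted p = 1.23e-06). These were the only DEGs that also passed glmTreat, edgeR's test against a 1.5-fold change. Both were called with control D in the fit, and with control D and the block Rsrp1 was (adjusted p = 0.0274) and Clk1 was not (adjusted p = 0.0798). Among the 30 tested members of the list, 4 passed adjusted p upward and 2 downward (8 and 3 with the block), with a median of -0.01. Tra2a, an SR-like splicing activator, had a log2 fold change of 0.30 (adjusted p = 0.00662) and Luc7l, a U1 snRNP factor, 0.31 (adjusted p = 0.0259). Srsf5, an SR protein, had -0.54 (SE 0.06, adjusted p = 0.000524), with a fall from 220 to 250 CPM in controls to 147 to 183 CPM. Hnrnpdl, an RNA-binding protein that splices its own transcript, had -0.31 (adjusted p = 0.00324). Among the relatives of Clk1, Clk4 had 0.42 (adjusted p = 0.056) and Clk3 0.15 (adjusted p = 0.118), and both passed with the block (adjusted p = 0.0124 and 0.0471), while Clk2 had -0.05 (adjusted p = 0.812).

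Outside the lists, 12 higher DEGs remained, 8 of them named. Rbak, a KRAB zinc finger protein that binds the retinoblastoma protein, was at 5.78 to 7.07 CPM in controls A to C and 10.1 to 13.9 CPM after heat (log2 0.90, SE 0.13, adjusted p = 0.00234). Kansl1l, a relative of a histone acetyltransferase subunit, was at 12.7 to 14.7 CPM and 18.4 to 24.0 CPM (log2 0.67, SE 0.10, adjusted p = 0.00334). Both were called with any 1 library left out. Ccdc117, Cep295nl, Zfp322a (a zinc finger factor), Six4 (a homeobox factor) and Slc35e4 (a solute carrier) had log2 fold changes between 0.59 and 0.77, and each lost its call in 2 to 5 of the 7 fits that left out 1 library. For these, the adjusted p without a library was between 0.0164 and 0.185 where the call ended, or the change was below 1.5-fold. Nat14, a putative acetyltransferase, had the fourth largest rise (log2 1.32, SE 0.31, adjusted p = 0.0407) on 4 to 9 counts per control library and 14 to 17 counts per heated library. Control D had 14 counts of Nat14, and its call ended with any 1 library left out (adjusted p 0.0597 to 0.201).

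The DEGs listed only by identifier were 4 in number, all higher. The gene ENSCGRG00001010711 was at 1046, 922 and 1089 CPM in controls A to C and 1848, 1355, 1879 and 2048 CPM in heated A to D (log2 0.81, SE 0.10, adjusted p = 0.00088). The gene ENSCGRG00001018019 was at 61.5, 56.7 and 60.6 CPM in controls A to C and 107, 79.4, 106 and 111 CPM in heated A to D (log2 0.76, SE 0.09, adjusted p = 0.000524). In both, control D lay inside the heated range, at 1908 and 98.9 CPM. What they encode is not given by the names used here.

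Cebpb, a bZIP transcription factor placed in the list of the PERK-ATF4 branch, was called in some fits only. It was at 5.33, 4.52 and 5.35 CPM in controls A to C and 6.39, 7.91, 8.65 and 11.2 CPM in heated A to D (log2 0.74, SE 0.17, adjusted p = 0.0393). Control D, at 9.53 CPM, exceeded 3 of the 4 heated libraries. The call ended with the letter as a block, where the log2 fold change of 0.58 was just under 1.5-fold (adjusted p = 0.0183), and without control A, B or C or heated C or D (adjusted p 0.0645 to 0.205).

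The 6 lower DEGs shared no list. Plk2 (ENSCGRG00001022259), a polo-like kinase that p53 can induce, had the smallest adjusted p among them. It was at 107, 99.98 and 100.3 CPM in controls A to C and 103 CPM in control D, and at 48.1, 62.9, 48.7 and 64.6 CPM in heated A to D (log2 -0.87, SE 0.09, adjusted p = 0.000148). Lcmt2 (ENSCGRG00001009861), a tRNA-modifying methyltransferase, was at 4.84, 4.89 and 5.17 CPM in controls A to C and 5.43 CPM in control D, and at 1.77, 2.69, 1.71 and 2.64 CPM in heated A to D (log2 -1.17, SE 0.18, adjusted p = 0.00334). Plk2 and Lcmt2 were called with any 1 library left out, and control D lay with the other controls for both. Hoxb3 (ENSCGRG00001016667), a homeobox factor, had the largest fall (log2 -1.20, SE 0.22, adjusted p = 0.00903), from 2.95, 3.43 and 3.36 CPM in controls A to C to 1.02, 2.00, 1.22 and 1.40 CPM in heated A to D. Those were 39 to 47 and 15 to 26 counts, and control D had 19.

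Marchf7, a membrane-associated ubiquitin ligase listed in the counts under a date, went from 80.6 to 109 CPM in controls A to C to 49.2 to 66.4 CPM (log2 -0.67, SE 0.10, adjusted p = 0.0035). Gas8, a subunit of the ciliary dynein regulatory complex, had a log2 change of -0.68 (SE 0.13, adjusted p = 0.0116), and Slc16a6, a transporter of the monocarboxylate family, -0.62 (SE 0.14, adjusted p = 0.0365). Control D lay within the heated range for Slc16a6, Gas8 and Hoxb3. The call of Slc16a6 ended without any 1 library but heated B (adjusted p 0.0605 to 0.187), that of Marchf7 without control C (log2 -0.55), that of Gas8 without control A (adjusted p = 0.0694) and that of Hoxb3 without control B (adjusted p = 0.058).

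Stress programmes other than the cytosolic heat shock genes showed few calls in the fit without the block. In the ATF6 branch of the unfolded protein response, which raises chaperones of the endoplasmic reticulum, 1 of 16 tested genes passed adjusted p and none was a DEG, with a median of 0.10. That gene was Manf, a secreted stress-induced protein (log2 0.25, adjusted p = 0.0276). With the block 8 of the 16 passed, all upward, while 381 of all 10494 tested genes passed upward and 253 downward. The median log2 ratio of control D over the list was 0.14, within the heated range of 0.035 to 0.17. Hspa5, the chaperone BiP, stood at 2019 to 2156 CPM in controls A to C and 2153 to 2522 CPM after heat, with a slight overlap (log2 0.20, adjusted p = 0.0797, and 0.000288 with the block). None of 18 IRE1-XBP1 genes passed, 3 with the block, among them Xbp1 (log2 0.33, adjusted p = 0.0745, and 0.00083 with the block). Among 24 PERK-ATF4 genes, Cebpb was higher and Sesn2, a regulator of mTORC1, had a log2 fold change of -0.53 (adjusted p = 0.0332). Atf4 (log2 -0.24, adjusted p = 0.448) and Ddit3, which encodes CHOP (log2 0.63, adjusted p = 0.123), did not pass. With the block Ddit3 was a DEG (log2 0.60, adjusted p = 0.0154), and control D, at 9.17 CPM, lay inside its heated range of 5.07 to 10.0 CPM.

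The p53 target list held 1 lower DEG, Plk2, among 11 tested genes, with 2 past adjusted p downward (Plk2 and Sesn2) and a median of -0.13. Cdkn1a, the cell cycle inhibitor p21, was at 34.6, 36.3 and 51.1 CPM in controls A to C and 28.6, 27.2, 44.0 and 29.5 CPM in heated A to D, with C highest in both groups. Its log2 fold change was -0.33 (adjusted p = 0.328), and it passed with the block (-0.29, adjusted p = 0.00447). Rbm3, a cold-inducible RNA-binding protein, had -0.27 (adjusted p = 0.117, and 0.00795 with the block), and its relative CIRBP -0.14 (adjusted p = 0.213).

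Lipid and housekeeping lists gave no DEG. None of 23 genes of cholesterol synthesis and uptake, 14 of fatty acid synthesis and desaturation, 18 of G2 and mitosis, 18 of oxidative stress, 14 circadian clock genes and 13 mitochondrially encoded genes passed adjusted p, and their medians lay between -0.08 and 0.14. With the block, 3 clock genes, 2 oxidative stress genes and 2 mitochondrially encoded genes passed, with log2 fold changes between -0.31 and 0.39. The mitochondrial sum itself varied from 21583 to 30081 CPM among controls A to C. Hmox1, the haem oxygenase that marks oxidative stress, was at 119 to 134 CPM in controls and 128 to 141 CPM after heat (log2 0.11, adjusted p = 0.337). Of 19 sphingolipid enzymes, Sgpl1, which degrades sphingosine phosphate, passed with a small value (log2 0.20, SE 0.05, adjusted p = 0.0407). It was at 63.3 to 64.3 CPM in controls A to C and 71.4 to 75.7 CPM after heat. With the block Ugcg, the glucosylceramide synthase, also passed (log2 -0.15, adjusted p = 0.0283, against -0.16 and 0.278 without it).

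The heated cultures did not respond to the same extent. Over the 29 higher DEGs, the median log2 ratio to the mean of controls A to C was 0.86 in heated A, 0.50 in B, 0.95 in C and 0.76 in D, and 0.17 in control D. Heated A and C were the highest pair of the 4 in 20 of the 29 (69%), against 14.1% of all tested genes. Over the 6 lower DEGs the medians were -0.998, -0.53, -0.94 and -0.72 in heated A to D and -0.32 in control D, and A and C were the lowest pair in 4 of 6, against 13.9% of all tested genes. The order was not the same for every gene. Ier5l and Rsrp1 differed little among the heated libraries, and Cebpb was lowest in heated A. Leaving out heated B gave 56 DEGs, 34 of the 35 among them, and leaving out heated C gave 23, all among the 35. The medians over all tested genes were within 0.01 of 0 in all 8 libraries.

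**Figure D3:**
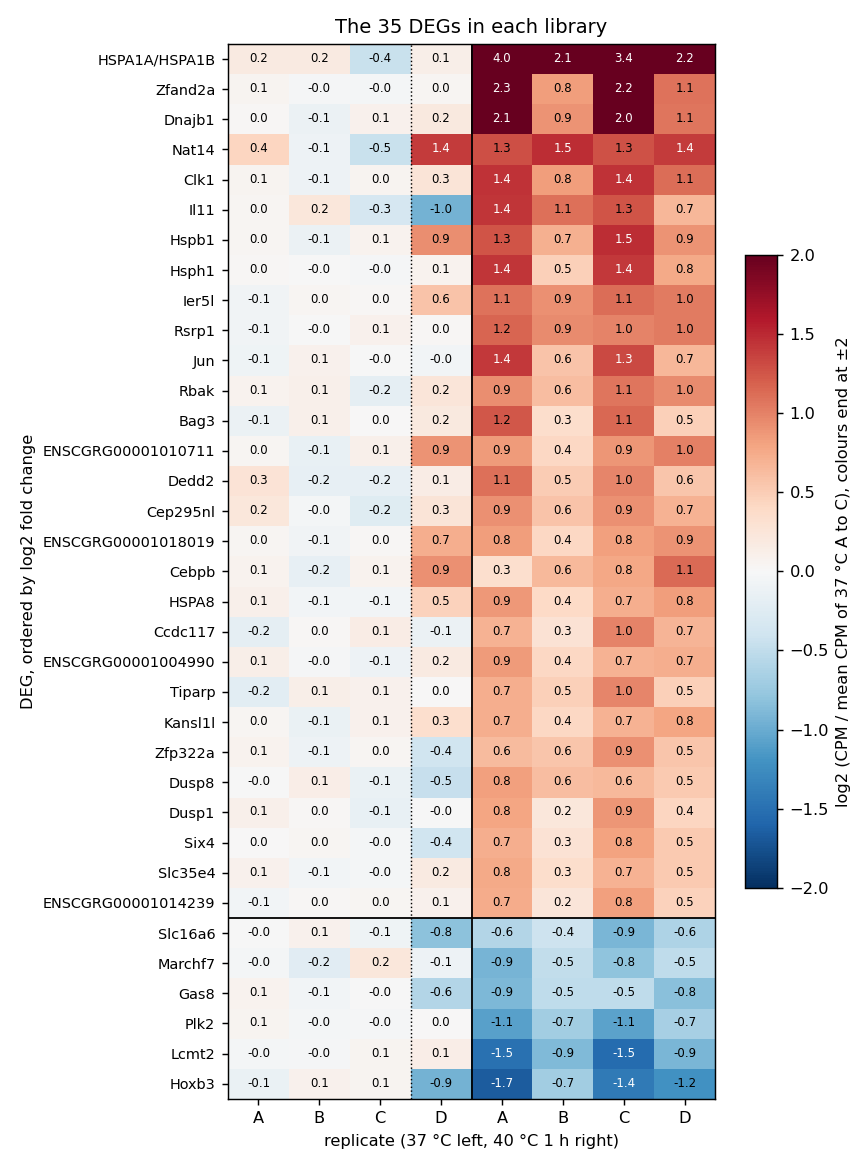
Log2 of each DEG's CPM over its mean in 37 °C A to C, for the 4 control (left) and 4 heated (right) libraries. The dotted line sets off control D, which was not in the fit. Heated A and C are the strongest pair for most DEGs, as for HSPA1A/HSPA1B, and control D shares the heated colour in rows such as Hspb1.

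The dose was then raised at the same time. Between 42.5 °C and 40 °C for 1 h, 183 of 10441 tested genes were higher DEGs at 42.5 °C (1.75%) and 367 lower (3.51%). Because the 35 genes were chosen with the values at 40 °C for 1 h, the counts among them describe these libraries. Of the 29 higher DEGs, 13 were higher still at 42.5 °C, 4 were lower there than at 40 °C, and the median difference was 0.53 on the log2 scale. HSPA1A/HSPA1B went from a mean of 31.5 ± 20.1 CPM (SD, n = 4) at 40 °C to 1699 ± 147 CPM (SD, n = 4) at 42.5 °C, a log2 difference of 5.73 (SE 0.28, adjusted p = 1.02e-09). Zfand2a differed by 2.58 (SE 0.28, adjusted p = 4.85e-06), Dnajb1 by 2.16 (SE 0.25, adjusted p = 7.72e-06), Bag3 by 1.89 and Hsph1 by 1.88. Dusp1 differed by 1.68 (SE 0.15, adjusted p = 7.45e-07).

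Jun did not differ beyond its spread, and 4 genes were lower at the higher dose. Jun averaged 145 ± 42.7 CPM (SD, n = 4) after 40 °C and 159 ± 16.6 CPM (SD, n = 4) at 42.5 °C, a difference of 0.12 (SE 0.14) that did not pass (adjusted p = 0.533). Ier5l was lower at 42.5 °C by 0.66 (SE 0.10, adjusted p = 0.000146), as were Six4 by 0.82, Zfp322a by 0.95 and Nat14 by 1.27. Six4, at 51.8 ± 8.04 CPM (SD, n = 4) after 40 °C, averaged 29.5 ± 4.15 CPM (SD, n = 4) after 42.5 °C and 34.2 ± 1.02 CPM (SD, n = 3) at 37 °C. Of the 6 lower DEGs, Plk2 was lower still at 42.5 °C by 0.83 (SE 0.13, adjusted p = 0.000116) and Slc16a6 by 0.71 (adjusted p = 0.0249). Egr1 and Klf6, which were below control at 40 °C, stood higher at 42.5 °C than at 40 °C by 2.56 (adjusted p = 1.52e-10) and 0.82 (adjusted p = 3.58e-06), and Fos by 3.80 (adjusted p = 2.95e-10). Klf4 differed by 0.13 (adjusted p = 0.0732).

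Time was varied at 40 °C. Between 6 h and 1 h, 58 of 10439 tested genes were higher DEGs at 6 h (0.556%) and 76 lower (0.728%). Of the 29 higher DEGs of the 1 h treatment, 3 were higher at 6 h and 7 lower, with a median difference of -0.27. Zfand2a, at 63.2 ± 30.7 CPM (SD, n = 4) after 1 h, was at 16.9 ± 2.19 CPM (SD, n = 4) after 6 h against 18.9 ± 0.692 CPM (SD, n = 3) at 37 °C, a difference of -1.90 between the times (SE 0.26, adjusted p = 0.000193). Jun was lower at 6 h by 1.17 (SE 0.14, adjusted p = 8.85e-05), at 64.7 ± 2.04 CPM (SD, n = 4) against 70.8 ± 4.40 CPM (SD, n = 3) at 37 °C. Dnajb1 was lower by 0.97, Dusp1 by 0.82, Il11 by 0.77, Bag3 by 0.72 and Clk1 by 0.62. Dnajb1 was still at 44.6 ± 6.66 CPM (SD, n = 4), and Bag3 at 96.7 ± 0.511 CPM (SD, n = 4) with 87.7 ± 6.57 CPM (SD, n = 3) at 37 °C.

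HSPA8 went the other way, from 266 ± 36.9 CPM (SD, n = 4) at 1 h to 451 ± 84.2 CPM (SD, n = 4) at 6 h, a difference of 0.76 (SE 0.11, adjusted p = 0.000203). Hspb1 (0.42, adjusted p = 0.155), Hsph1 (0.14, adjusted p = 0.648) and HSPA1A/HSPA1B (-0.93, adjusted p = 0.0686) did not pass between the times. Among genes of the endoplasmic reticulum that had not passed at 1 h, Hspa5 was higher at 6 h by 0.93 (adjusted p = 2.15e-05) and Hsp90b1, the HSP90 of that compartment, by 0.60 (adjusted p = 8.88e-05). No lower DEG of the 1 h treatment was a DEG between the times. Plk2 had a difference of 0.30 (adjusted p = 0.0212), below the fold threshold.

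**Figure D4:**
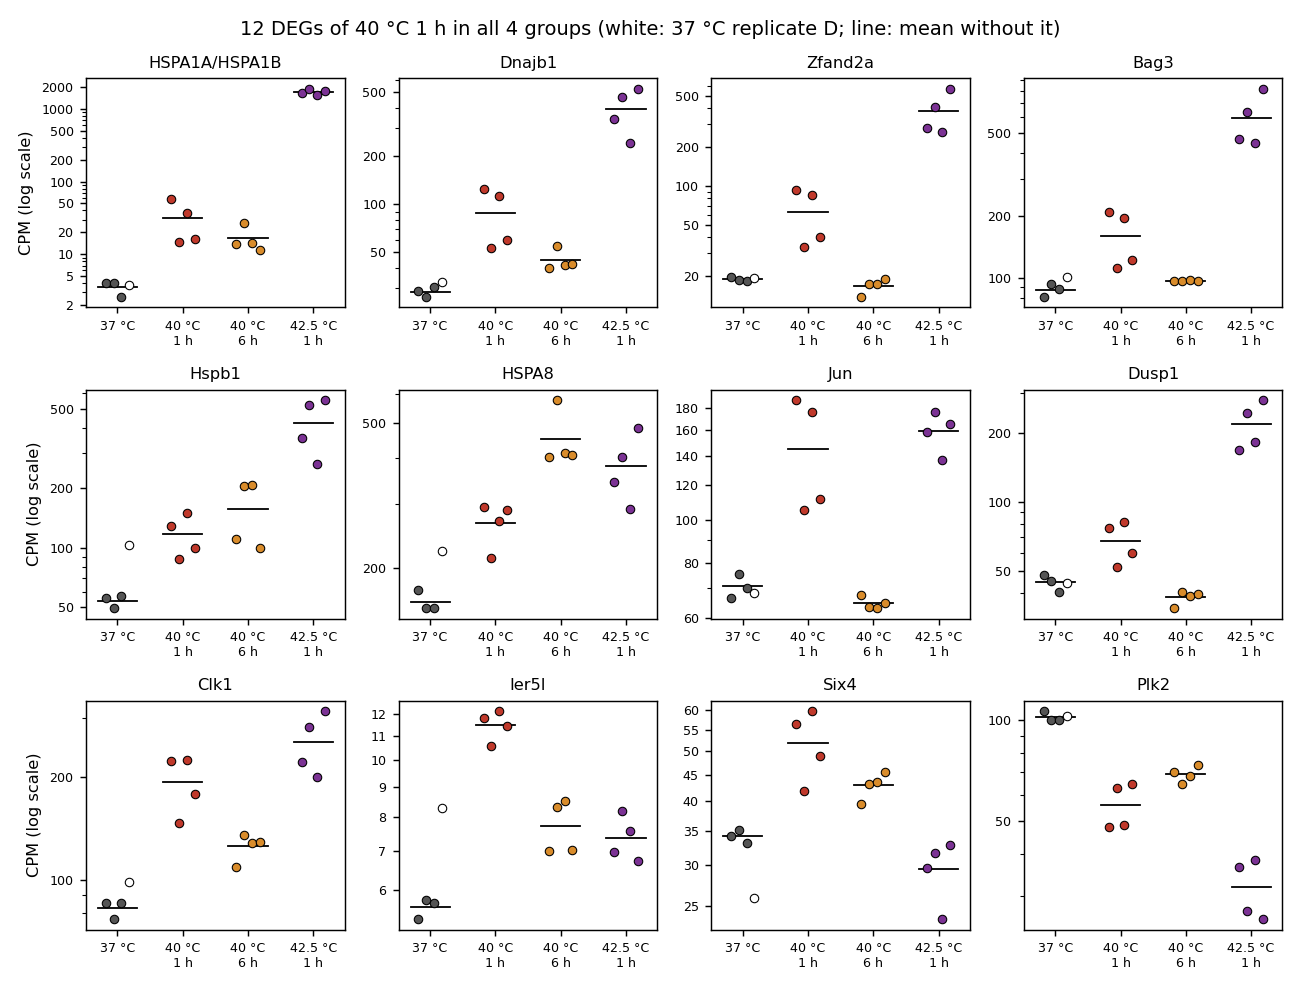
CPM (log axis, own scale per panel) of 12 DEGs of the 1 h treatment at 40 °C in each library of the 4 groups, with the group mean as a line and control D, which is not in the mean, as an open circle. The Jun libraries at 6 h lie below those at 1 h, and the HSPA1A/HSPA1B libraries at 42.5 °C lie far above those of every other group.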

How the data were processed

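Gene counts were deposited by the authors as 1 table of whole-number counts per gene and library. Per the study's methods, RNA libraries of CHO cells were read on an Illumina NextSeq as paired ends, trimmed and mapped to the CHOK1GS_HDv1 genome with the CLC Genomics Workbench. Its version and the annotation are not given in the sources used here. The 7 libraries held 11346465 to 14668365 counts. Library totals count reads assigned to listed genes.

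Counts of 37 °C A, B and C and 40 °C 1 h A to D were filtered with filterByExpr, scaled with TMM and tested with the quasi-likelihood test of edgeR 4.0.16 (R 4.3.3), with Benjamini-Hochberg adjustment over all tested genes. A DEG had adjusted p below 0.05 and a fold change of at least 1.5. CPM used the TMM factors. The other heated groups were set against 40 °C 1 h in the same way. DESeq2 1.42.0 and limma 3.58.1 served as alternatives, as did robust dispersions, other filters, glmTreat, a letter block, a fit over all groups, the fourth control and leaving out each library. Scripts were tested on simulated data.

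Same-letter control and heated libraries deviated together, with correlations of 0.188, 0.101 and 0.185 for A, B and C. Control C and heated D, of different letters, reached 0.152. The letters were therefore treated as pairs in an alternative, the blocked fit, where heated D was unpaired unless control D was included. The main fit, which gave the DEGs and every value not marked as blocked or as another alternative, did not pair the libraries. The members and gene lists were chosen with earlier results of these data known. Named genes were the DEGs with a name, the 2 highest identifier-only rises, list members past adjusted p, and the best-known member of each role. HSPA1A/HSPA1B, HSPA8 and a few others are listed by identifier and were paired with their names through the study's tables. The row for Marchf7 is listed as a date. Fold changes are log2 of heated over control. Promoter motifs were not analysed here.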

Additional observations from a re-analysis of the deposited data

Results flagged for a closer look

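Of 58 named genes checked in each group, 7 in the 37 °C group and 4 in the 40 °C 1 h group had 1 library far from the other 3 by Dixon's criterion, which chance alone meets in about 1 in 20 groups. Control D stood high for Ier5l (8.28 CPM), Cebpb (9.53 CPM), Hspb1 (103 CPM), ENSCGRG00001018019 (98.9 CPM) and ENSCGRG00001010711 (1908 CPM). Control C stood low for HSPA1A/HSPA1B (2.59 CPM) and control B for Sgpl1 (63.3 CPM). Among the heated libraries, B stood low for Manf (133 CPM), Tra2a (79.7 CPM) and ENSCGRG00001018019 (79.4 CPM), and A for Hnrnpdl (183 CPM).

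DEGs of the 1 h treatment at 40 °C that were also DEGs against another heated group were the following, as log2 differences. The 40 °C 1 h libraries served both to choose these genes and in the difference. At 42.5 °C for 1 h the level was higher than at 40 °C for 1 h for HSPA1A/HSPA1B (5.73), Zfand2a (2.58), Dnajb1 (2.16), Bag3 (1.89), Hsph1 (1.88), Hspb1 (1.86), Dusp1 (1.68), ENSCGRG00001018019 (1.17), Il11 (1.14), ENSCGRG00001014239 (0.88), Cebpb (0.66), Rbak (0.62) and ENSCGRG00001010711 (0.62). It was lower at 42.5 °C for Ier5l (-0.66), Slc16a6 (-0.71), Six4 (-0.82), Plk2 (-0.83), Zfp322a (-0.95) and Nat14 (-1.27). After 6 h at 40 °C the level was higher than after 1 h for ENSCGRG00001004990 (0.77), ENSCGRG00001010711 (0.76) and HSPA8 (0.76). It was lower after 6 h for Clk1 (-0.62), Bag3 (-0.72), Il11 (-0.77), Dusp1 (-0.82), Dnajb1 (-0.97), Jun (-1.17) and Zfand2a (-1.90).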

How the results depend on the processing

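None of the 58 genes recomputed, the DEGs and the list members past adjusted p, changed direction in an alternative. They were chosen by adjusted p in the main fit, and the alternatives used mostly the same libraries, so a reversal was unlikely from the start. The 35 DEGs, 29 higher and 6 lower, became 172 (112 higher, 60 lower) on adjusted p alone and 2 (2 higher, 0 lower) with glmTreat, which tests against the 1.5-fold threshold itself. Robust dispersions gave 18 higher, the fit with no filter 11 lower, and the replicate block 14 lower. All 4 controls gave 3 (2 higher, 1 lower), the same with the block 1 (1 higher, 0 lower), and all 4 with quality weights 11 lower. Leaving out 1 library gave 23 (without heated C) to 56 (without heated B), with 18 to 39 higher and 5 to 17 lower, and 19 of the 35 were called in all 7 such fits. Non-overlapping genes numbered 373 higher and 287 lower with all 4 controls, and 929 to 1294 higher and 871 to 1203 lower without 1 library, where fewer libraries have to separate. The cause was not tested for the other shifts. Between 42.5 °C and 40 °C, 550 DEGs became 3767 on adjusted p alone and 171 with glmTreat, and between 6 h and 1 h 134 became 1931 and 8. In those comparisons the letters did not pair the libraries, and a block gave 546 and 138 DEGs. In the main comparison the block ended the call of Cebpb and of no other named DEG. At 3 against 4 libraries and a floor of 0.205 to 0.264 CPM, changes in genes such as Nat14, Hoxb3 and Fos rest on few counts.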

Other observations

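Pairing control and heated libraries by letter added 14 DEGs that the comparison without the block had not called, 6 higher and 8 lower. They were singled out after their values were seen, and with control D in the blocked fit none of them was called. Adamts1, a secreted metalloprotease, was at 58.0, 61.0 and 63.5 CPM in controls A to C and 36.4, 49.4, 34.3 and 48.0 CPM in heated A to D, with a log2 fold change of -0.60 with the block (adjusted p = 5.97e-05) and -0.53 without it (adjusted p = 0.0134). Sertad3, a transcriptional co-regulator, was at 4.45 to 5.61 CPM in controls A to C and 6.6 to 9.79 CPM after heat (log2 0.64 with the block, adjusted p = 0.00704, and 0.60 without it, adjusted p = 0.0673). Nuak2, a kinase of the AMPK family, was at 3.71 to 4.81 CPM in controls and 5.51 to 7.96 CPM after heat (log2 0.71 with the block, adjusted p = 0.0114, and 0.63 without it, adjusted p = 0.0662). Rgs2, a regulator of G protein signalling, was at 1.47 to 2.33 CPM in controls and 2.30 to 4.57 CPM after heat, where the groups overlapped and control D, at 3.03 CPM, lay inside the heated range (log2 0.91 with the block, adjusted p = 0.0335, and 0.95 without it, adjusted p = 0.0611).

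RIN2, a regulator of the Rab5 GTPase, was at 2.46, 6.34 and 3.36 CPM in controls A to C and 6.32 CPM in control D. It was at 2.38 CPM in heated A and at 0 in heated B, C and D (adjusted p = 0.0281 with the block and 0.0691 without it). PTP4A1, a phosphatase, was at 5.10 to 5.96 CPM in controls A to C and 1.90 to 4.96 CPM after heat (log2 -0.98 with the block, adjusted p = 0.00404), and NAA20, an acetyltransferase subunit, was at 3.14 to 6.74 CPM and 0.921 to 3.88 CPM (log2 -1.04 with the block, adjusted p = 0.00224). Control D, at 3.65 CPM of NAA20, lay inside its heated range.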
